A study of Mus musculus with 10 samples.

Results

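The genes described here encode the semaphorins of classes 3 to 7, their plexin and neuropilin receptors, the ephrins and the Eph receptors, as measured in the hippocampus of A-CREB and wild-type mice given kainate or saline. They were found by gene symbol and mean signal level and not by the values of a comparison, though earlier results of these data were known. Of 53 genes whose symbols matched, 47 were kept because the mean of log2(signal + 22) over all 10 arrays was above 6.47, with each gene read from the probe set, naming 1 gene, that had the highest mean. These 47 stand among 13219 genes tested. The kept genes nearest the level were Efna4 at 6.97, Efna1 at 7.25 and Sema3g at 7.40, and those nearest below it were Sema3b at 6.46, Epha2 at 6.38 and Epha8 at 6.06. Epha1, Ephb4 and the antisense transcript Plxna4os1 also lay below it. The 47 comprise 6 class 3 semaphorins, 13 other semaphorins, 9 plexins, 2 neuropilins, 6 EphA and 3 EphB receptors, 5 A-type and 3 B-type ephrins.

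Semaphorins are secreted or membrane-bound ligands that act through plexins, large receptors whose cytoplasmic part switches off small GTPases of the Ras family. Most class 3 semaphorins reach plexins through a neuropilin, which binds the ligand. Ephrins are tethered to the cell surface and bind Eph receptor tyrosine kinases on the neighbouring cell, and both the receptor and the ephrin can signal. In the hippocampus these families are known for repelling growing axons, for the layered termination of afferents and of mossy fibres, and for shaping dendritic spines.

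A-CREB mice carried a strain name of TetO-A-CREB-95 C57BL6 F1/J, and wild-type mice were C57BL6 F1/J. A-CREB blocks the DNA binding of CREB, a transcription factor activated by cAMP and calcium signals, and its transgene stands under a tetracycline-operated promoter whose driver is not given in the labels. The 10 arrays formed groups of 2: A-CREB after saline, A-CREB after kainate at 14 mg/kg, A-CREB after kainate at 18 mg/kg, wild type after kainate at 14 mg/kg and wild type after saline. All mice were 3 weeks old, and each array held hippocampal RNA pooled from 3 to 4 of them, from 20 A-CREB and 14 wild-type mice in all. Kainate is a glutamate receptor agonist that provokes seizures. How long after the injection the tissue was taken is not given. Only A-CREB mice received 18 mg/kg, and no probe set was named for the transgene, so the genotype labels could not be checked on it.

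Values are deposited MAS5 signals on a linear scale, and in each pair of values below the array named replicate 1 comes first and replicate 2 after it. With 2 pools per group, every error and p-value reflects the spread of pools, not of single mice. That spread includes any difference between the replicate numbers, which the fit used below does not remove. In the wild-type kainate response, for example, the SE of Epha4 was 0.40, and 0.17 with the replicate number in the fit. For Efna5 it was 0.27 and 0.24. In bulk tissue, fewer cells of a type and less RNA per cell cannot be told apart. The treatment showed in Npas4, an activity-induced transcription factor, which ran from 8526 to 16278 on the 6 kainate arrays and from 148 to 251 on the 4 saline arrays. Of the hippocampal markers, 6 of 7 pyramidal and 6 of 6 dentate granule cell genes were among the genes tested. The median signal of an array was 94.5 to 106 for arrays numbered 1 and 134 to 152 for those numbered 2, and 4618 genes differed between the numbers.

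Promoters of 42 of the 47 genes, all but Efnb3, Plxna1, Plxna4, Sema6a and Sema3f, were matched in RefSeq for assembly GRCm38.p6, as 56 windows reaching from 250 bases before to 50 bases after an annotated start. The windows of the guidance genes were rich in G and C, with a median of 64% against 52.7% over 32851 windows of all genes, and held a median of 20 CG pairs against 7. Motifs of activity-regulated factors were searched on both strands. The CREB element TGACGTCA was in 0 of the 56 windows and in 1.79% of all windows. Its shorter form TGACG, which also lies inside TGACGTCA, was in 8 windows, those of Efnb1, Efnb2, Epha4, Ephb1, Ephb3, Sema3d, Sema5a and Sema7a, a share of 14.3% against 20.8% of all windows. The AP-1 motif TGANTCA was in 3 windows, those of Sema4c, Sema4d and Sema6b (5.36% against 7.81%). The motif GCGTGGGCG of the Egr zinc fingers was in 2, those of Plxna2 and Efna3 (3.57% against 0.612%). A match describes letters in a window and is not a bound site. Windows of 4 genes that recur in the results are given 5′ to 3′ on the strand of the gene. The first 3 are from 6 genes whose kainate values lay below the saline values in every same-numbered comparison. The fourth is from the gene whose A-CREB arrays all lay above the wild-type arrays. The first 3 each hold a motif and do not represent the 6 genes. The window of Ephb6, a second window of Efna3 and further windows of Sema4d held none, and Plxna1 had no matched window. Capitals mark a motif, and in Epha4 and Efna3 the capitals are its reverse complement. Sema3c held none of the motifs searched.
Epha4, chr1:77515039-77515338, minus strand, TGACG: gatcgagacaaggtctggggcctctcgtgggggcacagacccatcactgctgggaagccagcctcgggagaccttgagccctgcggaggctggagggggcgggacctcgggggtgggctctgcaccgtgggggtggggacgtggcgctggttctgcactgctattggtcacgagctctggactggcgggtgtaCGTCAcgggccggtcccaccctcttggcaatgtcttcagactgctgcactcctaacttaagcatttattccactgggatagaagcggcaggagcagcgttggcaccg
Plxna2, chr1:194619579-194619878, plus strand, GCGTGGGCG: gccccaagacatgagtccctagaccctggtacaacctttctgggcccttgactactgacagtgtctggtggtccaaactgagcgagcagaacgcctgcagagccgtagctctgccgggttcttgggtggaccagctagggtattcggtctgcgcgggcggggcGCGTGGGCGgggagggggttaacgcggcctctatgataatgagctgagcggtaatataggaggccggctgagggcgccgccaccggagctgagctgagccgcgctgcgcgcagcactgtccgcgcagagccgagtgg
Efna3, chr3:89322890-89323189, minus strand, GCGTGGGCG: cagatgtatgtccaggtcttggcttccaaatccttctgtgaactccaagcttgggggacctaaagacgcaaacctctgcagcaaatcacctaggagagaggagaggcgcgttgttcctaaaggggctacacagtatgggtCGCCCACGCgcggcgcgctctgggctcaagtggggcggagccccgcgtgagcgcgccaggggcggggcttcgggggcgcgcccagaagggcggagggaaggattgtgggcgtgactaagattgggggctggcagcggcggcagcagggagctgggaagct
Sema3c, chr5:17574566-17574865, plus strand: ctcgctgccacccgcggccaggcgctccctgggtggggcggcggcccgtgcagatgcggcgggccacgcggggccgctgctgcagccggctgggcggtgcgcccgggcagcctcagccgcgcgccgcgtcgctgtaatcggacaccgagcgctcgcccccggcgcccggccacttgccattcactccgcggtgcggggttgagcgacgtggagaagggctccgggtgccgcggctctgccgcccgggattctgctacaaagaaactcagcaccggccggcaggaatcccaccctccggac

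The brightest probe sets belonged to Epha4, Nrp1, Sema6d, Epha7, Plxna2 and Sema7a. Nrp1, the neuropilin that binds Sema3a, read 2963 and 3223 in A-CREB saline, 2517 and 3344 at 14 mg/kg, 2497 and 4391 at 18 mg/kg, 2953 and 3697 in wild-type kainate and 2102 and 3841 in wild-type saline. Sema6d, a transmembrane semaphorin, read 2823 and 1983 in A-CREB saline, 2595 and 1971 at 14 mg/kg, 2468 and 1861 at 18 mg/kg, 2741 and 1875 in wild-type kainate and 2652 and 2303 in wild-type saline. Epha7, a receptor for A-type ephrins, read 1484 and 2286 in A-CREB saline, 1288 and 1870.1 at 14 mg/kg, 1491 and 1883 at 18 mg/kg, 1582 and 2051 in wild-type kainate and 1805 and 2201 in wild-type saline. In Nrp1 and Epha7 replicate 2 was the higher array of every pair, in Sema6d it was the lower, and for these 3 genes the 5 groups overlapped. The largest ratio between 2 group means among the 47 genes was 3.01, for Sema3f, and the smallest 1.07, for Efnb2.

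Kainate left no guidance gene past the threshold. By limma, with 1 fit over all arrays and Benjamini-Hochberg adjustment over all genes, 0 of 47 passed an adjusted p of 0.05 in A-CREB at 14 mg/kg, where 0.310% of all genes did. At 18 mg/kg 0 of 47 passed, against 0.235% of all genes, and in wild type 0 of 47, against 0.182%. In the mean of the 3 responses 0 of 47 passed, against 0.741%, and the lowest adjusted p was 0.655, for Plxna2. At an unadjusted p under 0.05 there were 0 guidance genes in A-CREB at 14 mg/kg (4.99% of all genes), 0 at 18 mg/kg (2.79%), 4 in wild type, which is 8.51% against 3.53%, and 1 in the mean response, 2.13% against 7.38%. With the replicate number in the fit there were 4 in A-CREB at each dose (8.51% against 11.8% and 8.95%). In that fit there were 8 in wild type (17.0% against 9.75%) and 8 in the mean response (17.0% against 16.6%). The A-CREB responses share their saline arrays, and the mean of the responses uses all of them.

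**Figure D1:**
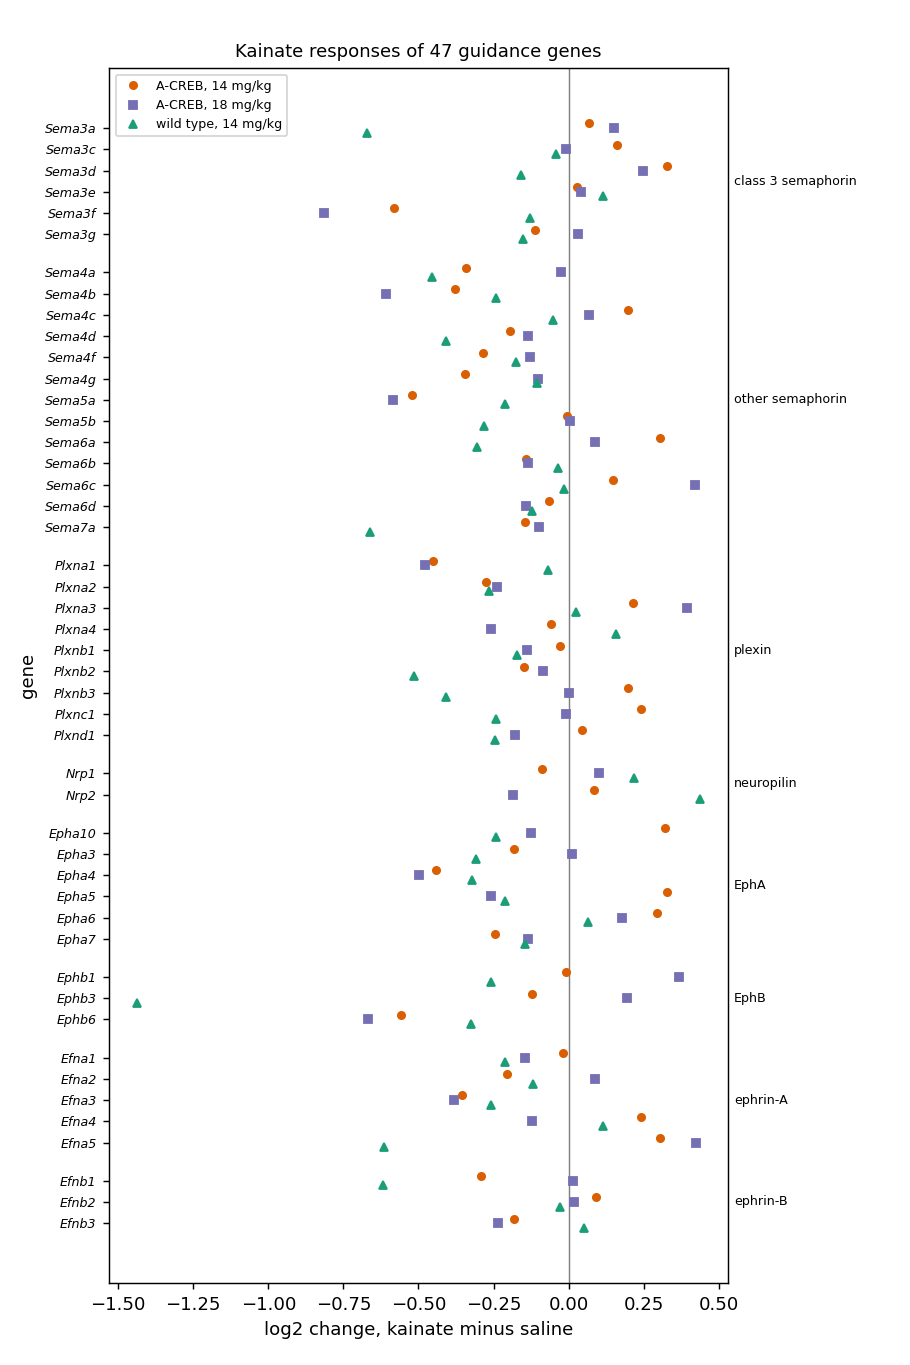
Log2 difference, kainate minus saline, of each of 47 guidance genes (rows, grouped by family) in A-CREB at 14 mg/kg (circles), A-CREB at 18 mg/kg (squares) and wild type at 14 mg/kg (triangles), 2 arrays per group. In wild type 39 of 47 points lie left of 0, and the point farthest left is Ephb3 at -1.44.

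The differences, although none passed, leaned below 0 more in wild type than in A-CREB mice. In A-CREB at 14 mg/kg the median log2 difference of the 47 genes was -0.06, against -0.02 over all genes, and 29 were negative (61.7% against 54.1% of all genes). At 18 mg/kg it was -0.10, against 0.00 over all genes, and again 29 were negative (61.7% against 49.7%). In wild type it was -0.21, against -0.05 over all genes, with 39 negative, a share of 83.0% against 58.3% of all genes. Within the replicate numbers the wild-type median was -0.19 for arrays numbered 1 and -0.23 for those numbered 2. The wild-type median over families ran from -0.33 for the 3 EphB receptors to 0.33 for the 2 neuropilins. The difference between the responses at 14 mg/kg, A-CREB minus wild type, had a median of 0.13 against 0.01 over all genes, with 0 of 47 genes past the threshold (0% of all genes) and 1, Efna5, at an unadjusted p under 0.05 (2.13% against 0.726%). Since these medians describe genes measured on the same arrays, they carry no test. The 95% interval of a gene's difference reached a median of 0.66 to either side, so that for 33 genes in A-CREB at 14 mg/kg, 33 at 18 mg/kg and 28 in wild type the interval lay within a log2 of 1 in either direction.

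Among the class 3 semaphorins, secreted ligands, Sema3a had the lowest wild-type value. Sema3a, which collapses growth cones, read 190.4 and 232 in A-CREB saline, 239 and 205 at 14 mg/kg, 248 and 224 at 18 mg/kg, 268 and 270.5 in wild-type kainate and 536 and 364 in wild-type saline. Its wild-type saline arrays lay above the other 8. The log2 difference was 0.07 (SE 0.25) in A-CREB at 14 mg/kg, 0.15 (SE 0.25) at 18 mg/kg and -0.67 (SE 0.25) in wild type. Its second tested probe set gave 0.02 in A-CREB at 14 mg/kg and -0.68 in wild type. Sema3d read 244 and 346 in A-CREB saline, 352 and 392 at 14 mg/kg, 308 and 396 at 18 mg/kg, 253 and 309 in wild-type kainate and 244 and 404 in wild-type saline. Both A-CREB arrays at 14 mg/kg lay above both A-CREB saline arrays (difference 0.33, SE 0.28), but the second probe set gave -0.11. Sema3f, a ligand of Nrp2 that repels hippocampal axons, read 229.7 and 348 in A-CREB saline, 84.6 and 368 at 14 mg/kg, 144 and 159 at 18 mg/kg, 173 and 741 in wild-type kainate and 352 and 454 in wild-type saline. The arrays at 18 mg/kg lay below both A-CREB saline arrays (-0.82, SE 0.66), while the pairs at 14 mg/kg spread more than 4 times in both genotypes. Over the 6 class 3 genes the difference ran from -0.58 to 0.33 in A-CREB at 14 mg/kg, from -0.82 to 0.25 at 18 mg/kg and from -0.67 to 0.12 in wild type.

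The 13 other semaphorins are anchored in the membrane, and in wild type all 13 had a negative difference, from -0.66 to -0.02, against 58.3% negative among all genes. In A-CREB mice 10 of 13 were negative at 14 mg/kg and 9 of 13 at 18 mg/kg. Sema7a, a lipid-anchored ligand of Plxnc1, read 2174 and 1316 in A-CREB saline, 1602 and 1459 at 14 mg/kg, 1611 and 1547 at 18 mg/kg, 1284 and 1416 in wild-type kainate and 2399 and 1917 in wild-type saline. The wild-type pairs did not overlap and the A-CREB saline pair spanned both kainate pairs. Its difference was -0.14 (SE 0.23) at 14 mg/kg in A-CREB, -0.10 (SE 0.23) at 18 mg/kg and -0.66 (SE 0.23) in wild type. Sema4d, a ligand of Plxnb1 known to promote the formation of inhibitory synapses, read 1133 and 1026 in A-CREB saline, 959 and 920.2 at 14 mg/kg, 934 and 1025 at 18 mg/kg, 899 and 971 in wild-type kainate and 1152 and 1349 in wild-type saline. All 6 kainate arrays lay below all 4 saline arrays, though the nearest arrays were at 1025 after kainate and 1026 after saline. The mean of its 3 responses was -0.25 (95% interval -0.50 to 0.01, adjusted p = 0.684 by limma).

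Of 4 other membrane semaphorins, Sema6a and Sema4c had responses to 14 mg/kg of opposite sign in the genotypes, and Sema4a and Sema4g were negative in both. Sema6a, a ligand of Plxna2 and Plxna4, read 484 and 516 in A-CREB saline, 642 and 605 at 14 mg/kg, 497 and 570.0 at 18 mg/kg, 567 and 579 in wild-type kainate and 574 and 886 in wild-type saline. Its difference was 0.31 (SE 0.22) in A-CREB at 14 mg/kg and -0.31 (SE 0.22) in wild type, and the second probe set was at -0.11 in A-CREB and -0.40 in wild type. Sema4a read 413 and 538 in A-CREB saline, 379 and 357 at 14 mg/kg, 469 and 455 at 18 mg/kg, 302 and 531 in wild-type kainate and 406 and 767 in wild-type saline. At 14 mg/kg its A-CREB arrays lay below both saline arrays (-0.34, SE 0.33), whereas the second probe set gave 0.26. In wild type its difference was -0.46, and -0.58 by the second probe set. Sema4g read 543 and 337 in A-CREB saline, 336 and 329 at 14 mg/kg, 324 and 487 at 18 mg/kg, 411 and 412 in wild-type kainate and 357 and 552 in wild-type saline. Both of its A-CREB arrays at 14 mg/kg lay below both saline arrays, by 336 against 337 at the nearest (-0.35, SE 0.29), and the wild-type difference was -0.10. Sema4c, with an AP-1 motif in its promoter window, read 198 and 202 in A-CREB saline, 249 and 216 at 14 mg/kg, 214 and 206 at 18 mg/kg, 197 and 198 in wild-type kainate and 188 and 225 in wild-type saline. Both A-CREB kainate pairs lay above the saline pair, by 0.20 (SE 0.24) at 14 mg/kg and 0.07 (SE 0.24) at 18 mg/kg, and the wild-type difference was -0.05.

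Among the plexins, Plxna2 gave the most even response. Plxna2, the receptor for Sema6a on mossy fibre targets, read 1835 and 1859 in A-CREB saline, 1389.9 and 1668 at 14 mg/kg, 1446 and 1686 at 18 mg/kg, 1618 and 1701 in wild-type kainate and 1923 and 2074 in wild-type saline. All 6 kainate arrays lay below all 4 saline arrays, which held for Plxna2 and Sema4d among the guidance genes (4.26% against 1.79% of all genes), while 0 lay above (1.73%). The difference was -0.27 (SE 0.17) in A-CREB at 14 mg/kg, -0.24 (SE 0.17) at 18 mg/kg and -0.26 (SE 0.17) in wild type, and the mean was -0.26 (95% interval -0.51 to -0.01, adjusted p = 0.655 by limma). Plxna1, a signalling partner of Nrp1, read 977 and 762 in A-CREB saline, 558 and 701 at 14 mg/kg, 566 and 664 at 18 mg/kg, 715 and 922 in wild-type kainate and 752 and 966 in wild-type saline. Both A-CREB kainate pairs lay below the saline pair, by -0.45 (SE 0.23) and -0.48 (SE 0.23), while the wild-type difference was -0.07 (SE 0.23) with overlapping pairs. The second probe set of Plxna1 gave -0.66 and -0.77 in A-CREB, and -0.39 in wild type. Plxnc1, the receptor of Sema7a, read 1059 and 977 in A-CREB saline, 1072 and 1359.6 at 14 mg/kg, 998 and 1023 at 18 mg/kg, 918 and 1105 in wild-type kainate and 952 and 1496 in wild-type saline. At 14 mg/kg its A-CREB arrays were the higher (0.24, SE 0.23), but 4 further probe sets were between -0.39 and -0.09. Plxnb3 read 611 and 733 in A-CREB saline, 868 and 682 at 14 mg/kg, 752 and 595 at 18 mg/kg, 651 and 647 in wild-type kainate and 764 and 985 in wild-type saline, with non-overlapping wild-type pairs (-0.41, SE 0.21). Plxnb2 was at -0.51 (SE 0.28) in wild type, also without overlap. Nrp2, the neuropilin that binds Sema3f, read 906 and 912 in A-CREB saline, 714 and 1304 at 14 mg/kg, 605 and 1045 at 18 mg/kg, 898 and 1193 in wild-type kainate and 666 and 864 in wild-type saline. It was the 1 guidance gene whose wild-type kainate arrays lay above the saline arrays without overlap (0.44, SE 0.33), and another of its probe sets gave -0.54.

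Epha4 had the same direction in every probe set. Epha4, the Eph receptor that binds ephrins of both types and acts on spines, read 3324 and 4309.9 in A-CREB saline, 2109 and 3662 at 14 mg/kg, 1940.2 and 3681 at 18 mg/kg, 2061 and 4104 in wild-type kainate and 3234 and 4110.0 in wild-type saline. Within each replicate number the kainate arrays lay below their saline array, by little in wild-type replicate 2, but the groups overlapped because replicate 2 was far higher. The difference was -0.44 (SE 0.40) in A-CREB at 14 mg/kg, -0.50 (SE 0.40) at 18 mg/kg and -0.32 (SE 0.40) in wild type. The mean response was -0.69 on arrays numbered 1 and -0.15 on those numbered 2, together -0.42 (95% interval -1.01 to 0.17, adjusted p = 0.856 by limma). Ephb6, a receptor without kinase activity, read 967 and 321 in A-CREB saline, 524 and 264 at 14 mg/kg, 372 and 319 at 18 mg/kg, 643 and 463 in wild-type kainate and 1009 and 470.1 in wild-type saline. Its mean response was -0.94 on arrays numbered 1 and -0.10 on those numbered 2. Ephb3 read 301 and 85.5 in A-CREB saline, 165 and 135 at 14 mg/kg, 253 and 144 at 18 mg/kg, 218 and 40.1 in wild-type kainate and 332 and 286 in wild-type saline. Its wild-type difference of -1.44 (SE 0.65) was the lowest of the 47 and rested mostly on the single array at 40.1. Epha10, also without kinase activity, read 148 and 187 in A-CREB saline, 149 and 303 at 14 mg/kg, 138 and 165 at 18 mg/kg, 174 and 259.5 in wild-type kainate and 262 and 249.9 in wild-type saline. The pairs of Epha10 overlapped for each kainate comparison.

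**Figure D2:**
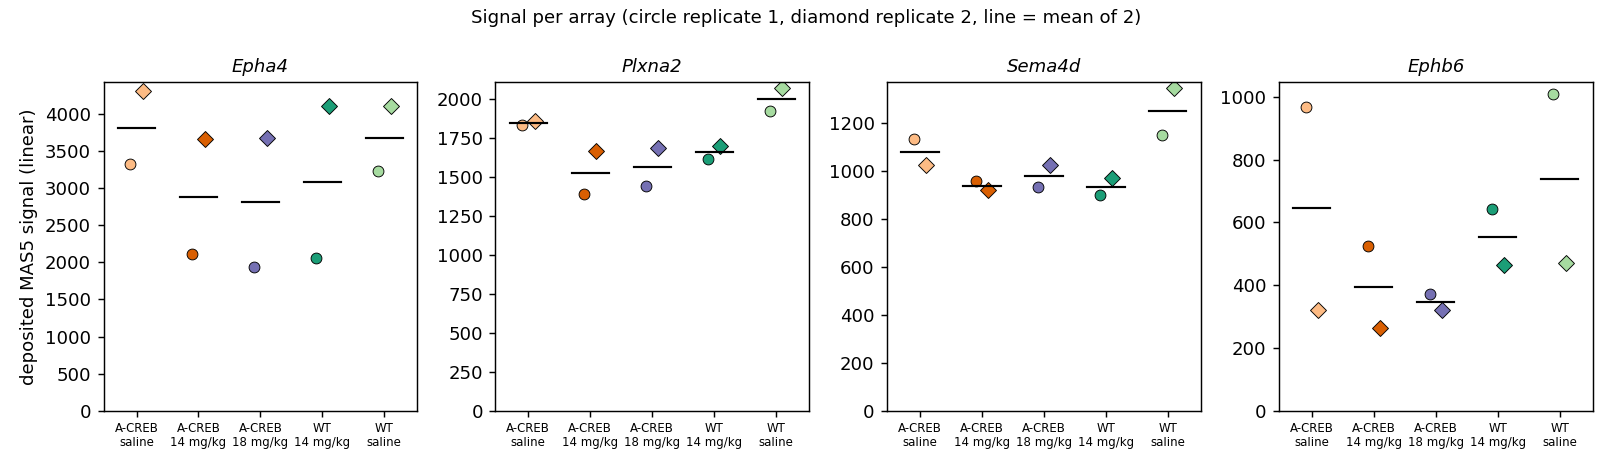
Deposited signal on each array of Epha4, Plxna2, Sema4d and Ephb6, with circles for replicate 1, diamonds for replicate 2 and a line at the mean of 2. The kainate arrays of Plxna2 and Sema4d lie below all their saline arrays, whereas Epha4 and Ephb6 are split by replicate number.

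Among the ephrins, Efna5 took opposite directions in the genotypes. Efna5, a lipid-anchored ligand that positions hippocampal axons, read 364 and 269 in A-CREB saline, 378 and 407 at 14 mg/kg, 437 and 419 at 18 mg/kg, 384 and 336 in wild-type kainate and 427 and 737 in wild-type saline. The kainate pairs lay above the saline pair in A-CREB and below it in wild type, without overlap. At 14 mg/kg this pattern was found in 1 of 47 guidance genes (2.13%) and in 0.968% of all genes. The difference was 0.30 (SE 0.27) in A-CREB at 14 mg/kg, 0.42 (SE 0.27) at 18 mg/kg and -0.61 (SE 0.27) in wild type. Efna3 read 1581 and 821 in A-CREB saline, 1129 and 695 at 14 mg/kg, 1042 and 728 at 18 mg/kg, 1028 and 1102 in wild-type kainate and 1427 and 1145 in wild-type saline. Its differences were -0.36, -0.38 and -0.26 (SE 0.33 each), while a second probe set of Efna3 was at 0.25 in wild type. Efnb1 was at -0.29 (SE 0.48) in A-CREB at 14 mg/kg, 0.01 (SE 0.48) at 18 mg/kg and -0.62 (SE 0.48) in wild type. A second probe set of Efnb1 gave -0.34, -0.01 and -0.12 in the same order, with overlapping pairs. The dimmest of its 3 probe sets gave -0.99, -0.25 and -0.37, each without overlap. By their brightest probe sets Efnb2 and Efnb3 lay between -0.24 and 0.09 in all 3 responses. Over its 4 tested probe sets Efnb2 ran from -0.33 to 0.23.

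For Epha4, Plxna2, Efna3, Sema4d, Plxna1 and Ephb6 there was a kainate array below the same-numbered saline array in 6 of 6 pairs. This is 12.8% of the 47 genes against 9.49% of all genes, and 0 genes were above in all 6 pairs (5.86%). Groups of 2 arrays did not overlap for 9 guidance genes on the higher side in A-CREB at 14 mg/kg (19.1% against 13.0% of all genes) and for 5 on the lower side (10.6% against 16.0%). At 18 mg/kg there were 2 on the higher side (4.26% against 12.4%) and 6 on the lower (12.8% against 12.2%). In wild type there was 1 on the higher side (2.13% against 10.2%) and 12 on the lower (25.5% against 16.6%). The 12 in wild type were Plxna2, Sema7a, Efna3, Sema4d, Plxnb3, Plxnb2, Epha3, Efna5, Sema3a, Plxnd1, Sema5b and Ephb3. Ephb6, Efna3 and Sema4d, and the comparison of all 6 kainate with all 4 saline arrays, were singled out after their values were seen.

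Further probe sets bear on the same genes. The 47 genes had 99 tested probe sets and 29 genes had more than 1. Fitted singly, 0 of the 99 passed in the mean kainate response, against 0.498% of all probe sets, and 6 had an unadjusted p under 0.05 by limma (6.06% against 6.27% of all). All 5 probe sets of Epha4 were negative in all 3 responses, from -0.73 to -0.10. All values were also negative for Plxna1 (2 probe sets, -0.77 to -0.07), Sema5a (3 probe sets, -0.70 to -0.10), Sema6d (-0.44 to -0.06) and Sema4f (-0.29 to -0.13), each of the last with 2 probe sets. These 5 genes are 17.2% of the 29, against 11.1% of all genes with several tested probe sets, and 0 were positive throughout (6.72%). Plxna2 was negative in 11 of 12 values, from -0.62 to 0.06. Nrp1 leaned the other way, with 1 of 12 values negative over 4 probe sets, from -0.09 to 0.76. The dimmest of these 4 was at 0.71 in A-CREB at 14 mg/kg, 0.76 at 18 mg/kg and 0.45 in wild type. Its kainate pairs lay above the saline pairs without overlap in all 3 responses. Probe sets of a gene are read on the same arrays and are not replicates.

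**Figure D3:**
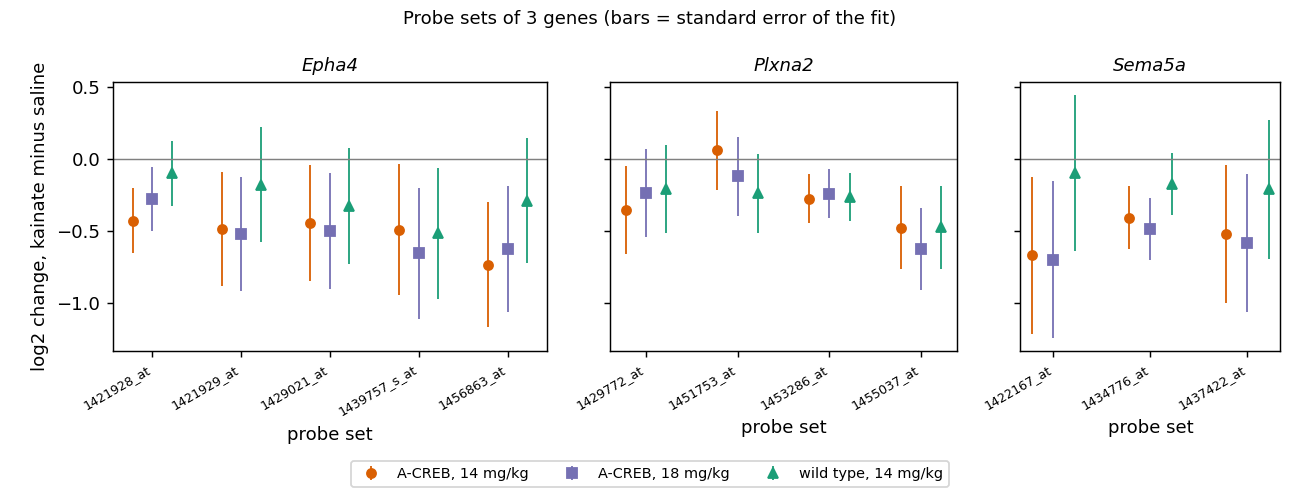
Log2 difference, kainate minus saline, with its standard error, for every tested probe set of Epha4, Plxna2 and Sema5a in A-CREB at 14 mg/kg (circles), A-CREB at 18 mg/kg (squares) and wild type (triangles). All 15 points of Epha4 and all 9 of Sema5a lie below 0, as do 11 of the 12 of Plxna2.

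Between genotypes no guidance gene passed either. By limma 0 of 47 differed between A-CREB and wild type after saline, where 0% of all genes did, and 0 after 14 mg/kg (0% of all genes). For the mean of these 2 genotype differences it was 0 of 47 (0% of all genes). At an unadjusted p under 0.05 there were 4 guidance genes after saline (8.51% against 1.48% of all genes), namely Sema6a, Efna5, Sema3a and Plxnd1. After 14 mg/kg there was 1 (2.13% against 1.27%), Sema3c, and for the mean there were 3 (6.38% against 2.03%), Sema3c, Sema3a and Plxnd1. After saline the median difference of the 47 was -0.11 against -0.03 over all genes. It was 0.04 on the arrays numbered 1 and -0.38 on those numbered 2, so that the negative median stood on the pair numbered 2. After 14 mg/kg it was -0.05 against -0.01. The saline difference and the kainate responses share the saline arrays.

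Sema3c was the guidance gene that was higher in A-CREB mice on every array. Sema3c, a secreted semaphorin, read 1542 and 1572 in A-CREB saline, 1753 and 1736 at 14 mg/kg, 1628 and 1468 at 18 mg/kg, 1276 and 1009.5 in wild-type kainate and 1373 and 995 in wild-type saline. The 6 A-CREB arrays lay above the 4 wild-type arrays, as in 0.371% of all genes. The log2 difference, A-CREB minus wild type, was 0.41 (SE 0.20) after saline and 0.61 (SE 0.20) after 14 mg/kg, and the mean was 0.51 (95% interval 0.19 to 0.82, adjusted p = 1 by limma). Its second probe set gave 0.41 and 0.33, and by the mean of probe sets the genotypes' arrays overlapped. Sema3e, the semaphorin that binds Plxnd1 without a neuropilin, read 1552 and 1875 in A-CREB saline, 1599 and 1888 at 14 mg/kg, 1536 and 2003 at 18 mg/kg, 1373 and 1779.5 in wild-type kainate and 1447 and 1436 in wild-type saline. Its A-CREB arrays lay above the wild-type ones after saline without overlap (0.24, SE 0.21) and overlapped them after kainate (0.15, SE 0.21). The next brightest probe set of Sema3e gave 0.0009 after saline and -0.08 after kainate, with overlap in both. Over its 4 probe sets 2 of 8 genotype values were negative, and they ran from -0.08 to 0.69.

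Sema3a and Plxnd1 lay lower in A-CREB mice on every array, as in 0.522% of all genes. The saline difference of Sema3a was -1.0 (SE 0.25) and that after 14 mg/kg -0.26 (SE 0.25), with a mean of -0.63 (95% interval -1.02 to -0.24, adjusted p = 1 by limma). The second probe set of Sema3a gave -0.33 after saline and 0.37 after kainate, so the direction after kainate was not shared. After quantile or cyclic loess normalization, or by the mean of probe sets, the Sema3a arrays of the genotypes overlapped. Plxnd1, the receptor of Sema3e, read 233 and 236 in A-CREB saline, 250.3 and 234 at 14 mg/kg, 222 and 189 at 18 mg/kg, 276 and 306 in wild-type kainate and 354 and 342 in wild-type saline. Its difference was -0.53 (SE 0.21) after saline and -0.24 (SE 0.21) after kainate, with a mean of -0.39 (95% interval -0.72 to -0.05). Plxna2, Sema4d, Plxnb2, Sema3a and Plxnd1 had a wild-type saline pair above the other 8 arrays, 10.6% of the 47 genes against 3.02% of all genes.

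**Figure D4:**
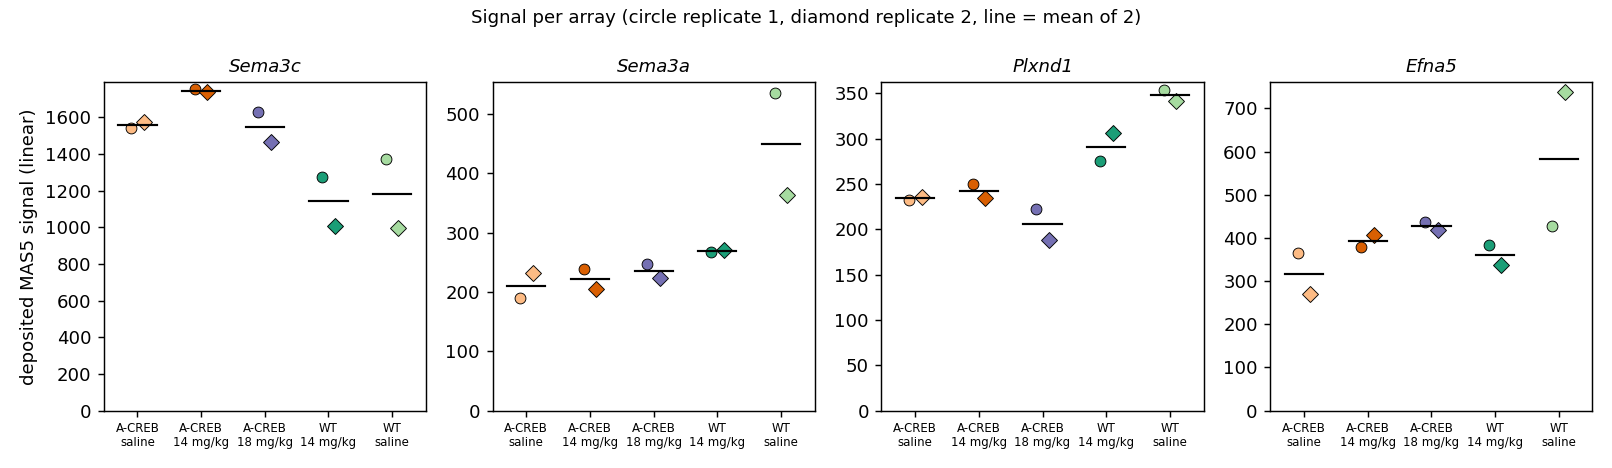
Deposited signal on each array of Sema3c, Sema3a, Plxnd1 and Efna5, with circles for replicate 1, diamonds for replicate 2 and a line at the mean of 2. The 6 A-CREB arrays lie above the 4 wild-type arrays for Sema3c and below them for Sema3a and Plxnd1, while in Efna5 the wild-type saline pair is widely spread.

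Other genes had separated pairs in 1 condition, or, for Sema6a and Plxnb3, in both with opposite signs. After saline, Efna5 was at -0.80 (SE 0.27), Sema6a at -0.50 (SE 0.22), Plxnb3 at -0.36 and Epha10 at -0.56 (SE 0.35), A-CREB minus wild type, and Nrp2 at 0.25 (SE 0.33). After 14 mg/kg, Epha5, an ephrin-A receptor, was at 0.47 (SE 0.42), Sema3d at 0.38 (SE 0.28), Plxnb3 at 0.24 (SE 0.21), Sema6a at 0.12, Plxna1 at -0.36 (SE 0.23), Efna2 at -0.35 (SE 0.31) and Sema4g at -0.29 (SE 0.29). For Plxna1 the second probe set gave 0.17 in that comparison. The second probe set of Plxnb3 gave -0.42 after saline and -0.14 after 14 mg/kg, so its opposite signs were not shared. For Sema6a the second gave -0.12 and 0.17. Epha5 read 1659 and 686 in A-CREB saline, 1456 and 1244 at 14 mg/kg, 1196 and 661 at 18 mg/kg, 1206 and 777 in wild-type kainate and 1384 and 913 in wild-type saline. Efna2 read 298 and 447 in A-CREB saline, 318 and 309.9 at 14 mg/kg, 354 and 429 at 18 mg/kg, 403 and 408 in wild-type kainate and 309 and 627 in wild-type saline. In both genes replicates of a group differed by more than some of the group differences. After saline 3 guidance genes did not overlap on the higher side (6.38% against 8.76% of all genes) and 11 on the lower (23.4% against 13.1%), and after 14 mg/kg these were 8 (17.0% against 9.99%) and 5 (10.6% against 11.8%). In all 4 same-numbered genotype pairs 7 genes were lower in A-CREB (14.9% against 9.40%), namely Plxna2, Ephb6, Efna2, Sema3a, Plxnd1, Sema3f and Efna4, and 3 were higher (6.38% against 5.92%), namely Sema3e, Sema3c and Epha6.

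The dose comparison in A-CREB mice left 0 of 47 genes past the threshold (0% of all genes), with 0 at an unadjusted p under 0.05 (0.567%). The median difference, 18 minus 14 mg/kg, was -0.03 against 0.02 over all genes, and single genes ran from -0.59, for Epha5, to 0.37, for Ephb1. Pairs did not overlap for 4 genes on the higher side (8.51% against 11.3%) and 7 on the lower (14.9% against 7.24%), among them Epha5, Sema3c and Plxnd1. The interval lay within a log2 of 1 for 35 of 47 genes.

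The guidance genes nearest the level of the rule were dim. Efna4, a lipid-anchored ephrin, read 53.3 and 137 in A-CREB saline, 62.3 and 177 at 14 mg/kg, 34.8 and 157 at 18 mg/kg, 76.4 and 217 in wild-type kainate and 76.2 and 182 in wild-type saline. Efna1 read 146 and 116 in A-CREB saline, 151 and 109 at 14 mg/kg, 143 and 93.5 at 18 mg/kg, 147 and 111 in wild-type kainate and 173 and 132 in wild-type saline. Sema3g read 139 and 178 in A-CREB saline, 129 and 159.8 at 14 mg/kg, 179 and 145 at 18 mg/kg, 97.1 and 171 in wild-type kainate and 114 and 187 in wild-type saline. In Efna4 replicate 2 was the higher array of every pair, in Efna1 it was the lower, and in all 3 genes the groups overlapped. Below the level, Sema3b read 138 and 49.3 in A-CREB saline, 87.2 and 45.1 at 14 mg/kg, 110.5 and 8.43 at 18 mg/kg, 138 and 13.9 in wild-type kainate and 131 and 74.0 in wild-type saline. Epha2 spanned 7.43 to 178 and Epha8 27.2 to 87.9 over the 10 arrays.

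The remaining members, Epha3, Epha6, Ephb1, Efnb1, Efnb2, Efnb3, Plxna3, Plxna4, Plxnb1, Plxnb2, Sema4b, Sema4f, Sema5a, Sema5b, Sema6b and Sema6c, are given by their families. Over the 9 plexins the difference ran from -0.45 to 0.24 in A-CREB at 14 mg/kg, from -0.48 to 0.39 at 18 mg/kg and from -0.51 to 0.16 in wild type. Over the 9 Eph receptors it ran from -0.56 to 0.33, from -0.67 to 0.37 and from -1.44 to 0.07 in the same comparisons. Over the 8 ephrins it ran from -0.36 to 0.30, from -0.38 to 0.42 and from -0.62 to 0.12. The mean genotype difference ran from -0.69 to 0.51 over the 19 semaphorins and from -0.39 to 0.15 over the plexins. It ran from -0.41 to 0.20 over the Eph receptors and from -0.34 to 0.00 over the ephrins. Of the ephrins 7 of 8 were negative, against 55.9% of all genes. Further probe sets of Efnb2 gave -0.19, 0.25 and 0.23.

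Partners of these receptors were read from lists. Of 36 coreceptors and effectors of semaphorin signalling, 34 were measured. In the mean kainate response, where 0.741% of all genes passed, 1 rose and 0 fell. This was Rnd3, a small GTP-binding protein that binds plexins, which rose by a mean log2 of 1.03 (SE 0.16, adjusted p = 0.02 by limma), with values of 1.02 in A-CREB at 14 mg/kg, 0.92 at 18 mg/kg and 1.15 in wild type. Arhgef11, an exchange factor for RhoA, was at -0.28 (SE 0.14) and Mical3 at -0.26 (SE 0.15). Of 31 Eph and ephrin partners 30 were measured and 0 passed, with 4 of 30 at an unadjusted p under 0.05 (7.38% of all genes). Their lowest values of p belonged to Tiam1, an exchange factor for Rac, at -0.36 (SE 0.11), and to the adaptors Nck1 at -0.37 (SE 0.15) and Nck2 at -0.28 (SE 0.11). Of 35 genes of other guidance systems 31 were measured and 0 passed, with 3 of 31 at an unadjusted p under 0.05 (7.38% of all genes). These were Rgma at -0.70 (SE 0.26), the netrin receptor Unc5a at -0.43 (SE 0.18) and Rgmb at -0.44 (SE 0.19). The median mean response was -0.08, -0.11 and -0.10 in these lists and -0.02 over all genes. In the mean genotype difference 0 passed in any of the 3 lists (0% of all genes). At an unadjusted p under 0.05 there were 1 of 34, 3 of 30 and 1 of 31, against 2.03% of all genes.

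Marker lists of other cells differed in some of the same comparisons, and their measured members all passed the filter on level. In the mean genotype difference 6 of 6 microglia markers were positive (median 0.30), with a summed signal of 10009 to 11551 in A-CREB saline, 11314 to 13822 at 14 mg/kg, 11909 to 13574 at 18 mg/kg, 8720 to 9159 in wild-type kainate and 9774 to 10335 in wild-type saline. The 7 choroid plexus markers were all negative (-0.31), though at 14 mg/kg in A-CREB all 7 were positive (0.64). Their sum was 26610 to 33172 in A-CREB saline, 31509 to 40126 at 14 mg/kg, 24814 to 40367 at 18 mg/kg, 31573 to 45077 in wild-type kainate and 30962 to 32584 in wild-type saline. The 4 striatal markers used here were all negative (-0.57). Their sum of 5201 in wild-type kainate replicate 2 stood far above 1037 to 2530 on the other 9 arrays. In the mean genotype difference 55.9% of all genes were negative. In A-CREB at 14 mg/kg 6 of 6 dentate granule cell markers were negative (-0.55), with a sum of 1733 to 2413 against 2745 to 3510 in A-CREB saline. At 18 mg/kg 5 of 6 were negative (-0.36), with a sum of 1971 to 2806 that overlapped saline. In the wild-type response 3 of 6 were negative (-0.003). Among all genes 54.1%, 49.7% and 58.3% were negative in these 3 responses. In the wild-type response 4 of 4 oligodendrocyte precursor markers (-0.43) and 6 of 6 astrocyte markers (-0.22) were negative, with sums of 5016 to 5767 against 6043 to 8057 and of 22313 to 26470 against 24401 to 29045. Their part in the guidance gene differences was not tested.

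The replicate number parted many of the guidance genes. With the number added to the fit, 18 of 47 differed between replicate 2 and replicate 1 (38.3% against 34.9% of all genes), 12 higher (25.5% against 20.6%) and 6 lower in replicate 2 (12.8% against 14.3%). The largest differences, replicate 2 minus replicate 1, were 1.26 (SE 0.18) for Efna4, 0.97 (SE 0.24) for Sema3f, -0.94 (SE 0.24) for Ephb3 and -0.84 (SE 0.16) for Ephb6. Epha4 differed by 0.68 (SE 0.11) and Sema5a by 0.78 (SE 0.14), which is larger than their kainate differences. Plxna2 (0.14, SE 0.09), Sema4d (0.05, SE 0.10) and Sema3a (-0.12, SE 0.14) did not pass. What the numbers stand for is not stated in the labels.

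**Figure D5:**
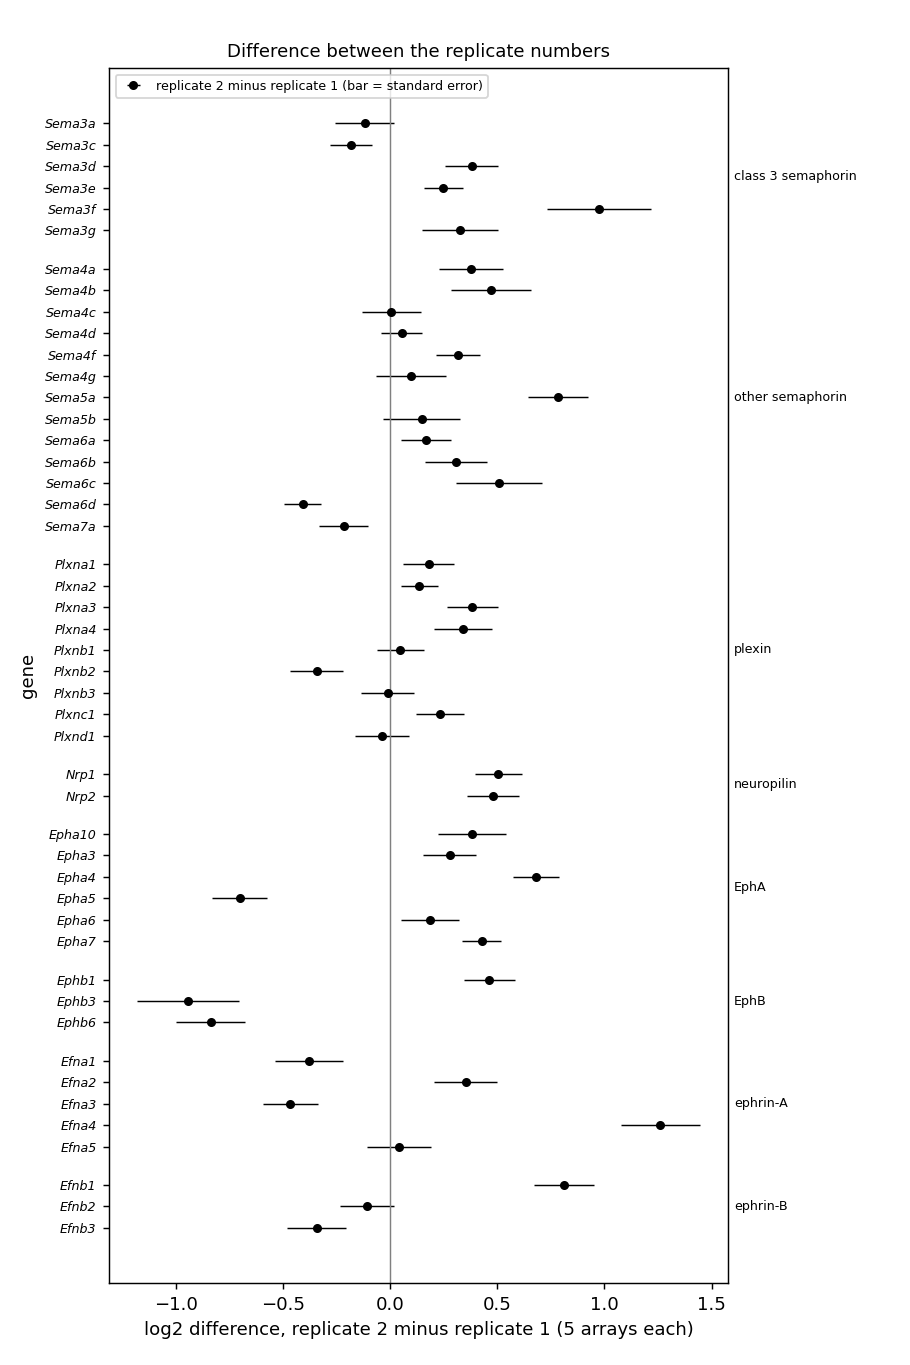
Log2 difference between replicate 2 and replicate 1 (5 arrays each) with its standard error, for 47 guidance genes by family. Efna4 lies farthest to the right at 1.26 and Ephb3 farthest to the left at -0.94.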

How the data were processed

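The authors deposited one intensity per probe set and array, made with MAS5 in GCOS per the submitters' processing notes, which name no versions. The 2% trimmed mean was 500.0 on every array, so the arrays had been scaled to it. From these deposited signals log2(signal + 22) was taken, and a pseudocount of 22 shrinks differences of dim genes. The brightest 60% of probe sets were tested, 23684 of them naming 1 gene. One model of 5 group means over the 10 arrays was fitted with lmFit, contrasts.fit and eBayes (intensity trend, 5 residual degrees of freedom) of limma 3.58.1, under R 4.3.3, two-sided, with Benjamini-Hochberg adjustment within each of 9 comparisons and a threshold of 0.05. The procedure was also run on simulated data with independent errors and no effect of the replicate number. That run cannot say how it performs on these arrays, where 4618 genes differed between the numbers. The number of arrays limits the precision.

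The members, the marker and partner lists and the tests were chosen with earlier results of these data known. Signals are given for genes past the threshold, for the 4 largest differences in each direction among non-overlapping groups, for the 6 brightest genes and for those nearest the level. Other named genes were chosen after their values were seen. List genes are up to 3 by smallest p. Of the lists, 12 of 12 immediate-early genes passed on the higher side in the mean kainate response, where 0.741% of all genes passed. In it 0 of 8 interneuron, 6 oligodendrocyte and 7 endothelial markers passed. Between genotypes 0 of them passed as well, where 0% of all genes did. At these shares such counts do not show that the markers were unchanged. Alternatives were other pseudocounts, filters, normalizations, variance models, probe set choices and samples, and the replicate block.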

Additional observations from a re-analysis of the deposited data

Results flagged for a closer look

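Efna5 stood out because its 2 kainate arrays lay above both saline arrays in A-CREB mice at 14 mg/kg (378 and 407 against 364 and 269) and below both in wild type (384 and 336 against 427 and 737). The difference between the responses, A-CREB minus wild type, was 0.9191 on the log2 scale (95% interval 0.08 to 1.76). It was tested in the limma fit and did not pass (unadjusted p = 0.035, adjusted p = 1, 0 of 13219 genes past the threshold and 96 at an unadjusted p under 0.05). By same-numbered arrays it was 0.20 for replicate 1 and 1.64 for replicate 2, positive in both but carried mostly by the wild-type saline array at 737. The second probe set of Efna5 was too dim to be tested.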

How the results depend on the processing

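The count of guidance genes past the threshold was 0 in each of 9 comparisons and stayed at 0 in 198 alternatives, and leaving out each array in turn it ranged from 0 to 0. Of 959 alternatives to 44 differences of named genes, 955 kept their direction and side of the threshold and 4 reversed. Filters, variance models and the replicate block cannot change a log2 difference, nor can leaving out an array of a group not compared. Much of the count of 955 was therefore fixed in advance and is no measure of robustness. Averaging probe sets turned Plxnc1 in A-CREB at 14 mg/kg to -0.15 and Sema3a between genotypes after 14 mg/kg to 0.056. With probe sets of the suffixes _s_at, _x_at and _a_at left out, Sema4a in A-CREB at 14 mg/kg was 0.26 and Plxnb3 between genotypes after kainate -0.14. These settings read further or other probe sets of the gene. In settings added after seeing the data, the guidance genes with all kainate arrays below all saline arrays (2, Plxna2 and Sema4d) were 1 after quantile normalization, 1 after cyclic loess (Plxna2 in both) and 0 by the mean of probe sets. Those with all A-CREB arrays apart from the wild-type arrays (3, Plxnd1, Sema3a and Sema3c) were 2, 2 and 2, Plxnd1 with Sema3c after both normalizations and with Sema3d by the mean of probe sets.

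With the replicate number as a block, 0 guidance genes passed in any of the 9 comparisons, and the lowest adjusted p was 0.0645, for Epha4 in the mean kainate response. At an unadjusted p under 0.05 by limma, the block gave 7 guidance genes between genotypes after saline (14.9% against 5.61% of all genes). After 14 mg/kg it gave 3 (6.38% against 4.98%), and in the mean genotype difference 5 (10.6% against 6.58%). For the difference between the responses it gave 5 (10.6% against 3.58%) and for dose 1 (2.13% against 3.03%). Over all genes the block gave 167 calls against 41 in A-CREB at 14 mg/kg, 92 against 31 at 18 mg/kg, 94 against 24 in wild type, 383 against 98 in the mean response, 5 against 0 between genotypes after 14 mg/kg and 4 against 0 in the mean genotype difference. What the numbers stand for is not stated. For each of the 10 arrays the closest other array by correlation had the same number, a hint from the data and not from the design.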
